A study of Mus musculus with 6 samples.

Results

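The enzymes that build and sialylate mucin-type O-glycans were followed through the inflamed bowel of mice that lack PPAR gamma in myeloid cells. The set was a given list of 34 genes, out of 18194 genes on the array with a probe set assigned to a single gene, and all 34 had such a probe set. Where a gene had several, the one with the highest mean over the 6 arrays was read. A gene entered the comparison when that mean was above log2 4, close to the floor of the arrays, which left 32 of the 34 members among 10553 genes. The others, St6galnac1 and St6galnac3, stayed between 2.87 and 3.70 on every array and were not compared.

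Mucin-type O-glycosylation starts in the Golgi, where polypeptide GalNAc-transferases (Galnt enzymes) place a first sugar on serine or threonine. C1galt1, with its chaperone C1galt1c1, turns this into the core 1 structure, Gcnt enzymes branch it to core 2, and B3gnt6 makes the alternative core 3 that is typical of colonic mucin. Further transferases lengthen the chains, and sialyltransferases and fucosyltransferases cap them. These glycans give the mucus gel its bulk, feed and anchor bacteria, and serve as ligands for lectins and selectins. Some of the listed enzymes also act on N-glycans or glycolipids.

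All 6 mice were C57BL/6, 6 to 8 weeks old, carried PPAR g fl/fl alleles and drank 2.5% dextran sodium sulfate (DSS), which injures the colonic epithelium, until day 7. In the 3 deficient mice a Cre recombinase targeted to the Lysozyme M promoter, active mainly in macrophages and neutrophils, removed the floxed gene (Lysozyme M cre+). The 3 controls were Lysozyme M cre- littermates. RNA of whole colon was hybridised, 1 array per mouse. Every animal received DSS, so the response to DSS was not measured, and effects of Cre itself cannot be told apart from those of the deletion. Expression values are log2 summaries, and a difference of 1 is a doubling.

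All 6 samples are labelled as colon, but the marker profiles of the arrays were not alike. The mean of 13 small intestine enterocyte markers lay between 5.28 and 7.11 on 4 arrays but was 12.49 for control replicate 1 and 11.23 for deficient replicate 3. The mean of 11 colonocyte and hindgut markers was 4.329 and 5.001 there, against 6.72 to 7.37. On the same pair the ileal bile acid carrier Fabp6 reached 15.32 and 14.49, and the colonocyte enzyme Car1, at 13.60 to 15.32 elsewhere, was at 2.83 and 7.02. They are called the small intestine profile arrays below and the other 4 the colon profile arrays. Each genotype held 1 of the former, so genotype differences are also given within each profile for the members on which the results turn. Arrays of 1 profile were not uniform in segment markers. On the colon profile arrays Hoxa10 read 7.23 and 7.07 in control and 8.92 and 8.88 in deficient samples. Hoxd10 read 6.59 and 6.51 in control there and 3.91 and 2.29 in deficient samples. Between the small intestine profile arrays Lct read 5.71 in control and 2.30 in the deficient sample. The part of bowel position in the differences within a profile was not tested. Control replicate 2 alone had Xist RNA, which coats an inactive X, at 12.11, the other arrays being at the floor. Pparg was lower in deficient samples within both profiles, at 8.77 and 8.23 against 9.91 and 9.54 on the colon profile arrays and at 4.15 against 5.28 on the others, while over all 6 arrays the groups overlap.

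**Figure D1:**
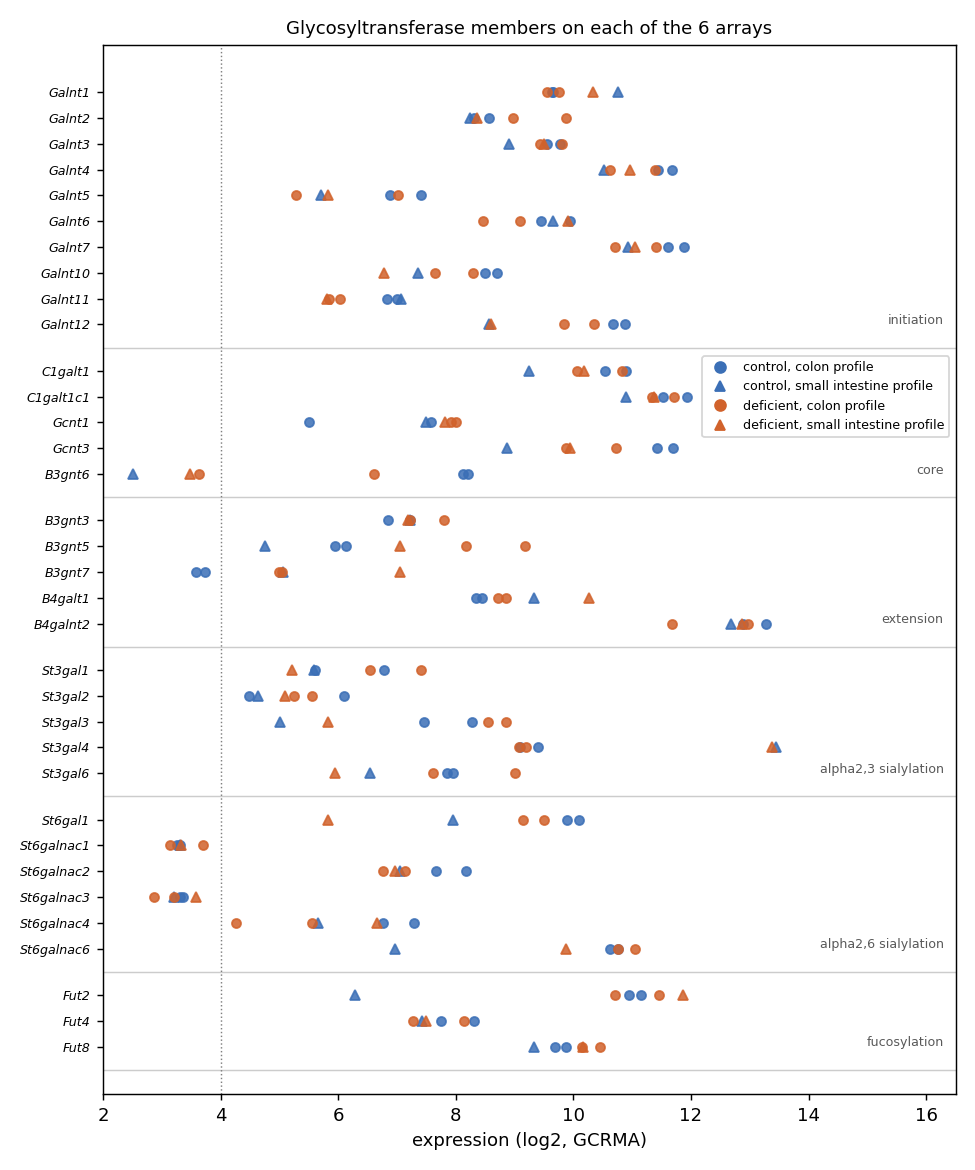
Expression (x axis, log2) of the 34 members (rows, grouped by their step in glycan synthesis) on each of the 6 arrays, coloured by genotype, with triangles for the 2 small intestine profile arrays and circles for the 4 colon profile arrays. The dotted line marks log2 4. St3gal4 separates the profiles most widely, at 13.38 and 13.45 against 9.07 to 9.39, while B3gnt5 and Galnt11 separate the genotypes.

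Promoter sequence was available from RefSeq (GRCm38.p6) for 22 of the 34 members, in 32 windows. The 3 genes shown are those on which the results below turn: St3gal4 for the bowel profile, B3gnt5 and Galnt11 for the genotype. Each is the stretch of up to 250 bases before the annotated gene start, written 5′ to 3′ on the strand of the gene. Capitals mark the GC box GGGCGG on either strand.
St3gal4 (chr9:35116865-35117114, minus strand): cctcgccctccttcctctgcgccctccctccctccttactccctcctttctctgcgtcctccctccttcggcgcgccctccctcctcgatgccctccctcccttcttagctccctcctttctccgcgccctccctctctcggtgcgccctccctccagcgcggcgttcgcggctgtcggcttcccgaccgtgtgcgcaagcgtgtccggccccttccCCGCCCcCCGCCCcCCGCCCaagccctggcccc
B3gnt5 (chr16:19759984-19760191, plus strand): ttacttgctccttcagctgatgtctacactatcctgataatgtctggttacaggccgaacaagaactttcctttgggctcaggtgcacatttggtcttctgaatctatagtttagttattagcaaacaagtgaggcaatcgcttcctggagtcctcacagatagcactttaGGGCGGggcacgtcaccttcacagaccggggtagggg
Galnt11 (chr5:25222622-25222871, plus strand): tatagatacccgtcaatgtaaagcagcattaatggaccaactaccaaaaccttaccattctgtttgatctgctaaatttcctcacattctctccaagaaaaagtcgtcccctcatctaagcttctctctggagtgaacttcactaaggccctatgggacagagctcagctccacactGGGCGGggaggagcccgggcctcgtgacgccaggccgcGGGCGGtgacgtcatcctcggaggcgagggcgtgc
The St3gal4 stretch, which is 72.8% G and C, overlaps the annotated gene 4930581F22Rik by a length that was not measured. It held 3 neighbouring GC boxes. The B3gnt5 stretch, cut at 208 bases where the gene begins, held 1 and the Galnt11 stretch held 2. A GC box was present in 16 of the 32 member windows and in 32.7% of all 32851 windows of 250 bases. The element to which PPAR gamma and its partner bind, searched as AGGTCA repeated in the same direction with 1 base between, was in no member window and in 0.0335% of all. The AP-1 motif TGANTCA was in 1 member window (6.75% of all), the NF-kappaB motif, GGG and TTCC with 3 bases between, in 2 (4.65%), the HNF4 motif CAAAGTCCA in 1 (0.384%) and the CDX motif TTTATNG in 2 (9.81%). None of these 5 was in the stretches shown. Both strands were searched, and a match or its absence describes only these letters in these windows.

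The genotype comparison asked how expression differed when PPAR gamma was lost in myeloid cells. No member and no other gene passed limma at a Benjamini-Hochberg adjusted p under 0.05 (0% of genes called), so all differences below are values rather than calls. At an unadjusted limma p under 0.05, B3gnt5 and Fut8 were higher and Galnt11 was lower in deficient samples. That is 2 of 32 members higher, where 5.01% of all genes were, and 1 lower, where 2.35% were. Every deficient array lay above every control array for 3 members, B3gnt5, Fut8 and Gcnt1, and below for Galnt11, beside 9.34% and 4.12% of all genes. The member counts therefore lay near those of the array as a whole. The median difference over the 32 members was -0.04, with 16 higher and 16 lower, and that over all genes was 0.06. Differences of at least 1 in either direction occurred in 9 of 32 members and in 7.28% of all genes, but the members also had larger errors, with a median limma standard error of 0.51 against 0.27 over all genes.

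Of the 10 initiating enzymes 8 had lower means in deficient samples, where 57% of all genes had higher ones, and only Galnt11 had an unadjusted limma p under 0.05. Their median difference was -0.43 over all 6 arrays, -0.65 among colon profile arrays and 0.11 between the small intestine profile arrays, with opposite signs in 7 of 10 members and in 41.4% of all genes. Galnt11, a GalNAc-transferase that also modifies the receptors Notch1 and megalin, had the smallest p of all members. It read 7.06, 6.82 and 7.00 on control replicates 1, 2 and 3 and 5.84, 6.02 and 5.81 on the deficient ones. The 2 groups lay about 1 unit apart, each within a narrow band, and the small intestine profile arrays stood with their genotype. Means were 5.89 ± 0.12 (SD, n = 3) and 6.96 ± 0.12 (n = 3). The difference was -1.07 with a standard error of 0.16, ninth smallest in p of all genes, at a limma unadjusted p of 0.00055 and an adjusted p of 0.645. It was -0.98 among the colon profile arrays and -1.25 between the small intestine profile arrays. Averaged with its second probe set, which lay at the floor of 2.245 on every array, the difference was -0.53.

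Galnt2, a broadly expressed initiator, was one of the 2 higher members of this group. It read 8.24, 8.31 and 8.56 in control and 8.97, 9.87 and 8.35 in deficient samples. The third deficient array lay within the control range, and the groups overlapped. The difference was 0.69 with a standard error of 0.40 (limma unadjusted p 0.136, adjusted p 0.719), with 0.98 among colon profile arrays and 0.11 between the others. Its other 2 probe sets gave 0.42 and 0.61. The other higher one, Galnt3, known for glycosylating the phosphate hormone FGF23, differed by 0.17.

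Galnt7 and Galnt10, follow-on enzymes that prefer peptides already carrying GalNAc, differed by -0.42 and -0.61. Galnt12, an enzyme of the colon, differed by -0.44. Galnt4, Galnt5 and Galnt6 differed by -0.22, -0.62 and -0.53, and Galnt1 by -0.14. Without control replicate 1 Galnt1 turned to 0.23 and Galnt3 to -0.09, without control replicate 2 Galnt4 turned to 0.015, and without deficient replicate 3 Galnt12 turned to 0.06. Bowel profile touched these genes unequally. Galnt12 read 8.57 and 8.60 on the small intestine profile arrays against 9.84 to 10.88 on the others, a profile difference of -1.85. Galnt10 was lower there by 1.22, whereas Galnt1 was 0.90 higher.

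Within the colon profile arrays, Galnt4, Galnt6, Galnt7, Galnt10, Galnt11 and Galnt12 were lower on both deficient than on both control arrays, and Galnt2 was higher. Over all members 11 of 32 were lower and 9 higher without overlap on those 4 arrays, where 18.3% of all genes were lower and 30.6% higher. Groups of 2 separate easily, and these counts carry no test. Between the small intestine profile arrays Galnt2, Galnt10 and Galnt11 kept the sign they had among the colon profile arrays.

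Among the 5 core enzymes, B3gnt6 alone was apart between the bowel profiles, where 20.8% of all genes were lower and 14.2% higher on the small intestine profile arrays. B3gnt6, the core 3 synthase, read 8.12 and 8.21 on control replicates 2 and 3, 6.61 and 3.64 on deficient replicates 1 and 2, and 2.51 and 3.48 on control replicate 1 and deficient replicate 3. Both small intestine profile arrays were thus under log2 4, near the floor, and so was deficient replicate 2. The profiles differed by -3.65. The genotypes differed by -1.70 with a standard error of 1.78 (limma adjusted p 0.832). Among colon profile arrays the genotype difference was -3.04, and between the small intestine profile arrays it was 0.97, where both levels were near the floor.

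Gcnt3, the mucin-type enzyme that branches core 1 and core 3, showed a like order. It read 11.69 and 11.43 on the colon profile controls, 10.72 and 9.88 on the colon profile deficient arrays, 8.87 on control replicate 1 and 9.94 on deficient replicate 3. The colon profile controls were highest and control replicate 1 was lowest. Its genotype difference of -0.48 (standard error 0.79) split into -1.26 among colon profile arrays and 1.08 between the others, and its other 2 probe sets gave -0.53 and -0.73 overall.

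Gcnt1, the core 2 enzyme of leukocytes and many epithelia, did not follow the bowel profile. Control replicates 1, 2 and 3 read 7.49, 5.50 and 7.58, and the deficient ones 7.92, 8.0 and 7.82. The deficient arrays were tightly grouped at 7.91 ± 0.09, while the control mean of 6.86 ± 1.17 (SD, n = 3 each) rested on replicate 2. The difference was 1.05 with a standard error of 0.58 (limma unadjusted p 0.120, adjusted p 0.711), and it was 0.38 without control replicate 2. Within the profiles it was 1.41 among colon and 0.33 between small intestine profile arrays. C1galt1 and C1galt1c1, which together form core 1, differed by 0.13 and 0.01. Both were lowest on control replicate 1, and without it the differences were -0.36 and -0.26.

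The chain-extending enzymes held the largest genotype value of the set. B3gnt5, which starts lacto-series chains on glycolipids, read 4.75, 5.95 and 6.13 on control replicates 1 to 3 and 8.18, 9.18 and 7.06 on the deficient ones. Deficient replicate 2 was highest and control replicate 1 lowest, and the groups did not overlap. Means were 8.14 ± 1.06 and 5.61 ± 0.75 (SD, n = 3 each). The difference was 2.53 with a standard error of 0.64 (limma unadjusted p 0.00786, adjusted p 0.675). It was 2.65 among colon profile arrays and 2.31 between the small intestine profile arrays, and from 2.01 to 3.07 with 1 array left out. Averaged with its second probe set, which reached at most 2.80, it was 1.35.

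B3gnt7, an enzyme of keratan sulfate and related chains, was also higher, from levels near the floor. It read 5.06, 3.57 and 3.73 in control and 4.98, 5.05 and 7.05 in deficient samples. The groups overlapped because control replicate 1 exceeded 2 deficient arrays. Within each profile every deficient array was above its controls, by 1.36 and 1.99. The overall difference was 1.57 with a standard error of 0.70 (limma unadjusted p 0.0667, adjusted p 0.688), and 0.89 without deficient replicate 3. B4galt1, which adds galactose in the same chains, showed this order at smaller size, with 0.40 and 0.94 within profiles and 0.58 overall. Both genes were higher on the small intestine profile arrays, by 1.72 and 1.21.

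B3gnt3, an extender of core 1 chains, differed by 0.31. B4galnt2, which makes the Sda antigen of the distal gut, read 12.69 and 12.87 on the small intestine profile arrays and 11.68 to 13.27 on the others, so the profiles overlapped. Its genotype difference of -0.44 (standard error 0.40) was -0.03 without deficient replicate 2, the lowest array at 11.68.

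**Figure D2:**
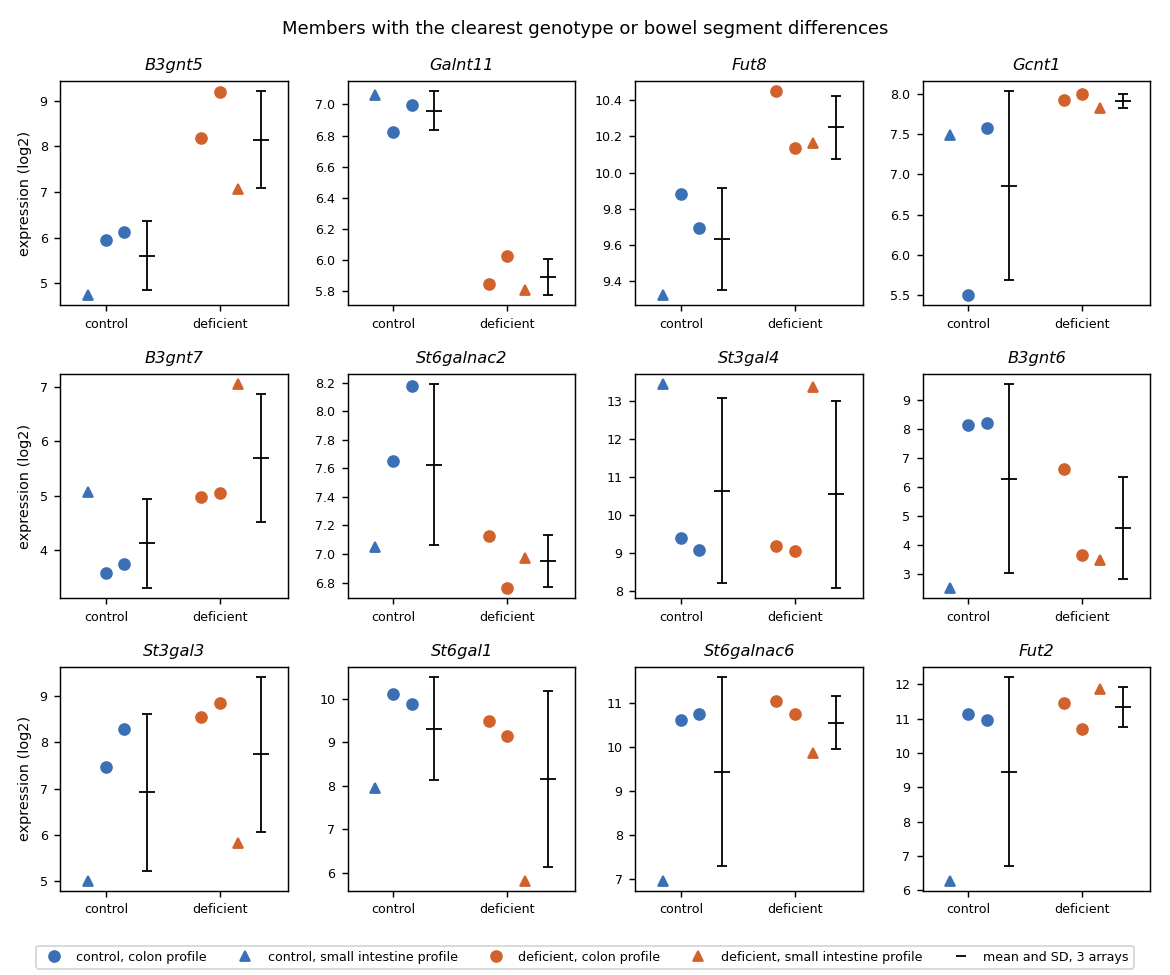
Expression (y axis, log2, a separate range in each panel that does not start at 0) of 12 members by genotype, with a point for each array and the mean and SD of 3 arrays beside them. In B3gnt5, Galnt11, Fut8 and Gcnt1 the genotypes do not overlap, while in St3gal4, St3gal3, St6gal1 and St6galnac6 the triangles of the small intestine profile stand apart from the circles. In B3gnt6 the triangle at 3.48 lies close to the circle at 3.64.

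Among the sialyltransferases that act through a 2,3 linkage, St3gal4, St3gal3 and St3gal6 were set apart by bowel profile far more than by genotype. St3gal4, which sialylates galactose on lactosamine and core 1 chains, read 13.45 on control replicate 1 and 13.38 on deficient replicate 3. On the colon profile arrays it read 9.39 and 9.09 in control and 9.19 and 9.07 in deficient samples. The profiles were 4.23 apart, while genotypes differed by -0.11 and -0.06 within them. St3gal4 was the only member higher by 2 or more without overlap on the small intestine profile arrays, beside 2.22% of all genes.

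St3gal3, which sialylates lactosamine ends, ran the other way, at 5.01 and 5.82 on the small intestine profile arrays against 7.46 to 8.85, a distance of -2.87. Deficient arrays were higher than controls by 0.83 and 0.81 within the profiles. St3gal6, with a like substrate range, was lower by 1.87 on the small intestine profile arrays, and its second probe set by 1.93. St3gal1, the main sialyltransferase of core 1, was lower there by 1.18, but control replicate 1 at 5.585 lay close to control replicate 3 at 5.599. For St3gal2, which acts on core 1 and gangliosides, it was lower by 0.48 and the profiles overlapped. Genotype differences were 0.82, 0.08, 0.40 and 0.23 for St3gal3, St3gal6, St3gal1 and St3gal2, with limma adjusted p from 0.881 to 0.990. St3gal6 split into 0.41 among colon profile arrays and -0.60 between the others, and St3gal1 into 0.78 and -0.37. St3gal6 turned to -0.25 on its probe set without a cross-hybridisation suffix. Without deficient replicate 2 St3gal1 turned to -0.11, and without control replicate 3 St3gal2 turned to -0.07.

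Of the sialyltransferases with a 2,6 linkage, St6gal1 and St6galnac6 also followed the profile. St6gal1, which caps N-glycans, read 7.96 and 5.82 on control replicate 1 and deficient replicate 3. On the colon profile arrays it read 10.10 and 9.89 in control and 9.50 and 9.14 in deficient samples. The small intestine profile was 2.77 lower, and within each profile the deficient samples were lower, with differences of -0.68 and -2.13. Overall the difference was -1.16 with a standard error of 1.13 (limma adjusted p 0.820), and it was -0.00075 without deficient replicate 3.

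St6galnac6, which acts on gangliosides and Lewis-type chains, lay between 10.62 and 11.05 on the colon profile arrays, at 6.97 in control replicate 1 and at 9.88 in deficient replicate 3. The low value of control replicate 1 made up the genotype difference of 1.11, which was -0.13 without it. With B3gnt6, St3gal3 and St6gal1 this makes 4 of 32 members lower by 2 or more without overlap on the small intestine profile arrays, where 1.93% of all genes were. That share is a description, since the arrays were set apart by their expression.

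St6galnac4, which adds sialic acid to GalNAc in already sialylated core 1, is the neighbour of St6galnac6 in the annotation. The neighbours had different patterns. St6galnac4 read 5.66, 6.76 and 7.29 in control and 4.27, 5.56 and 6.65 in deficient samples, which overlap, and the profiles differed by only 0.19. Its genotype difference was -1.07 with a standard error of 0.71 (limma adjusted p 0.744), made up of -2.11 among colon profile arrays and 0.997 between the others. A second St6galnac4 probe set, which reached at most 4.20, gave 0.33, and the mean of the probe sets gave -0.37. St6galnac2, with a like substrate, read 7.05, 7.65 and 8.17 in control and 7.13, 6.76 and 6.97 in deficient samples. All deficient arrays were below the colon profile controls, and 1 lay above control replicate 1. The difference was -0.67 with a standard error of 0.31 (limma unadjusted p 0.0768, adjusted p 0.688), with -0.97 among colon profile arrays and -0.08 between the others.

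**Figure D3:**
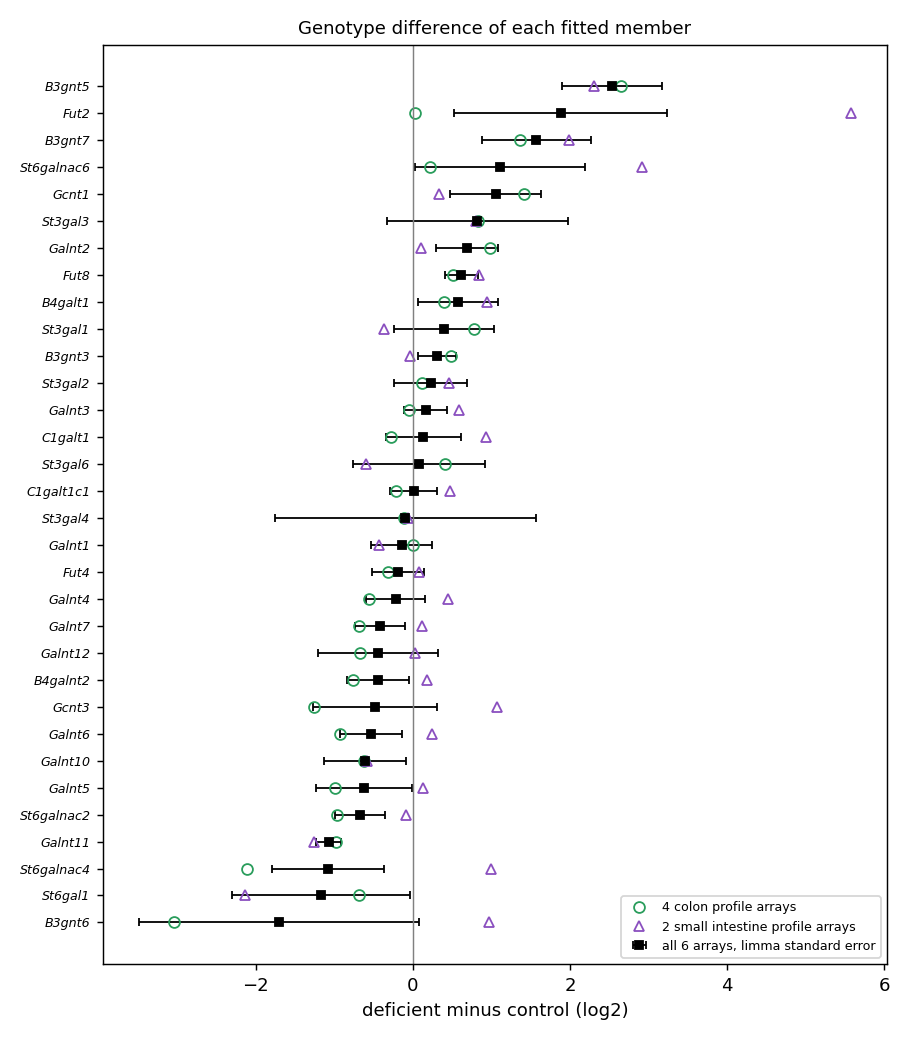
Deficient minus control difference (x axis, log2) of the 32 members compared, ordered by size. Squares give all 6 arrays with the limma standard error, circles the 4 colon profile arrays and triangles the 2 small intestine profile arrays. For B3gnt5, Galnt11, Fut8 and B3gnt7 all symbols lie on the same side of 0, whereas B3gnt6, Gcnt3 and St6galnac4 have circles and triangles on opposite sides.

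Of the fucosyltransferases, Fut8 and Fut2 were higher in deficient samples and Fut4 was close to even. Fut8, which adds the core fucose of N-glycans, read 9.32, 9.88 and 9.69 in control and 10.45, 10.14 and 10.16 in deficient samples. The groups did not overlap, and the highest array was deficient replicate 1. The difference was 0.62 with a standard error of 0.21 (limma unadjusted p 0.0258, adjusted p 0.675), with 0.51 and 0.84 within the profiles. A second Fut8 probe set with a mean above 4 gave -0.18, and the mean of the probe sets gave 0.085 (limma unadjusted p 0.553). With quantile normalization the unadjusted limma p of Fut8 was 0.0532. Fut2, which makes the H antigen that gut bacteria use, is named because of its values. It read 6.28 on control replicate 1 and 10.71 to 11.86 on the other 5 arrays, deficient replicate 3 being the highest of all. Its difference of 1.88 (standard error 1.36) was 0.29 without control replicate 1, and it split into 0.03 among colon profile arrays and 5.58 between the others. Its second probe set was also lowest on control replicate 1, at 4.04 against 5.51 to 6.85. Fut4, which makes Lewis x type ends, differed by -0.19, and by 0.05 without control replicate 3.

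When the bowel profile was entered as a block, no gene (0%) passed an adjusted p under 0.05, and members reached 0.203 at the least, for B3gnt5 and B3gnt7. At an unadjusted limma p under 0.05, 5 members were higher (B3gnt5, B3gnt7, Fut8, St3gal3 and B4galt1), where 8.12% of all genes were. Another 3 were lower (Galnt11, St6gal1 and Galnt10), where 5.33% of all genes were. The block leaves each difference as it was and takes the distance between profiles out of the error, so that the standard error of St3gal3 went from 1.15 to 0.26. The profile was read from the arrays themselves and not from the labels.

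**Figure D4:**
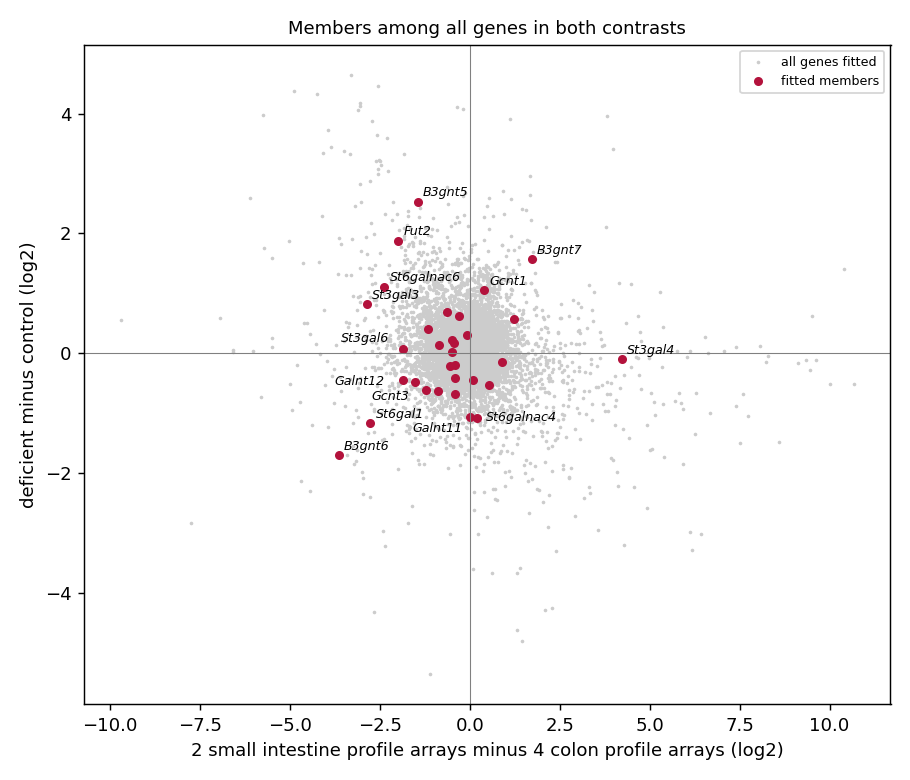
Difference between the 2 small intestine profile arrays and the 4 colon profile arrays (x axis, log2) against the deficient minus control difference (y axis, log2) for 10553 genes (grey) and the 32 members (red). Members spread along the x axis, from B3gnt6 at -3.65 to St3gal4 at 4.23, and along the y axis from B3gnt6 at -1.70 to B3gnt5 at 2.53.

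Across the set the profiles differed by a median size of 0.87 per member, against 0.33 over all genes. Of the 32 members 23 were lower on the small intestine profile arrays (55.2% of all genes were). Of 19 further member probe sets with a mean above 4, from 14 genes, 17 had the sign of the chosen one in the profile contrast and 16 in the genotype contrast.

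Genes around the pathway were read from fixed lists. Of 38 other transferases 11 could be compared and none had an unadjusted limma p under 0.05. The smallest p belonged to B4galt4 (-0.95), Gcnt2 (0.86), which makes I-branches, and B4galt3 (0.30), with limma adjusted p of 0.700, 0.700 and 0.718. Of 26 genes of nucleotide sugar supply 22 could be compared, none with p under 0.05, led by Npl (0.65), Uap1 (-0.46) and Renbp (0.42). On the small intestine profile arrays 11 of the 22 were lower without overlap and 2 were higher, beside 20.8% and 14.2% of all genes. A pair of the lower ones is named because of its values. Gne, the first enzyme of sialic acid synthesis, read 7.35 and 8.21 on the small intestine profile arrays against 9.66 to 10.88. Slc35a1, the Golgi transporter of CMP-sialic acid, read 8.50 and 9.19 against 10.68 to 11.45. Their genotype differences were 0.22 and -0.07.

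Among 16 sialidases, the sialate esterase and sulfotransferases, 7 could be compared. At an unadjusted limma p under 0.05, 2 of the 7 were lower, where 2.35% of all genes were. Neu1, the lysosomal sialidase, read 10.14, 10.46 and 10.30 in control and 8.86, 8.39 and 9.13 in deficient samples, with no overlap. It was lower by 1.76 among colon profile arrays and by 1.01 between the others. Gal3st1, a sulfotransferase mainly of glycolipids, differed by -0.76 (limma unadjusted p 0.0481), and Chst1, a keratan sulfotransferase, by -0.55. All 3 had a limma adjusted p of 0.675.

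Of 19 listed carriers of O-glycans 13 could be compared, none with an unadjusted limma p under 0.05. Higher means in deficient samples were seen for 10 of the 13, beside 57% of all genes. Muc3, a membrane mucin, was 14.08, 13.96 and 13.89 in the controls, each below the deficient values of 14.24, 14.27 and 14.41, and differed by 0.33. Selplg, the selectin ligand of leukocytes, differed by 1.48, with 2.56 among colon profile arrays and -0.70 between the others, and Cd24a differed by -0.59. Muc2, the gel-forming mucin, was 13.79 and 13.42 on the small intestine profile arrays against 15.06 to 15.49, with a genotype difference of -0.34. Of 17 lectins that bind such glycans 8 could be compared, none with an unadjusted p under 0.05, led by Clec10a (1.21), Siglecf (-0.36) and Selp (2.22).

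Cell type markers moved with the samples too. In bulk tissue fewer cells of a type and less RNA per cell cannot be told apart. Macrophage and monocyte markers had higher means in deficient samples for 14 of 16 genes, beside 57% of all genes, with list means of 8.08 to 9.03 against 7.55 to 8.13. The opposite held for Cx3cr1, which differed by -0.31 without overlap, and for Lyz2, the lysozyme gene whose locus carries the Cre. Lyz2 read 12.32, 11.79 and 12.19 in control and 6.80, 6.24 and 10.39 in deficient samples. Its difference of -4.29 was the largest of that list. All 5 neutrophil markers that could be compared were higher, with list means over 9 genes of 4.54 to 7.14 against 3.46 to 4.49, and Cxcr2 and Ngp stayed under log2 4 on every array. Deficient replicate 2, highest for B3gnt5 and Galnt2, was highest for both lists. Goblet cell markers had list means of 11.27 and 11.87 on the small intestine profile arrays against 12.58 to 12.70, with 5 of 11 higher in deficient samples. The smallest p of that list belonged to Spink4 (0.50), Atoh1 (-1.27), the secretory lineage factor, and Retnlb (3.97). Retnlb read 2.32 on control replicate 1, the array with the goblet list mean of 11.27, and 11.45 to 14.10 on the others. The mean of the 11 epithelial markers was 12.23 to 12.63 on all arrays. On the small intestine profile arrays 4 of them were higher without overlap and 2 lower, beside 14.2% and 20.8% of all genes. Vil1 and Krt20, of the differentiated epithelium, were higher there by 1.80 and 1.13. The lower ones were Krt18 and Cdh1, by 0.58 and 0.23. The part of these cell types in the member differences was not tested.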

How the data were processed

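Total RNA of whole colon from 6 mice was measured on Affymetrix mouse expression arrays. The deposited values are log2 expression per probe set. The submitters' processing notes name GCRMA, with settings not given in the sources used. GCRMA subtracts modelled background, so values near the floor of 2.245 are compressed. Arrays have no read depth, and their number, 3 per group, limits precision. Of 45101 probe sets, 34958 named 1 gene, 932 several and 9211 none. The genotype test was limma 3.58.1 under R 4.3.3 (eBayes, two-sided, no covariate), adjusted over 10553 genes; the script was tested on simulated data. An exact permutation test of 3 against 3 cannot go below p = 0.1 and was not used. All 34 members are named. Values on every array are given for the 8 smallest p and for members at least 2 apart between profiles. For St3gal3 and St6galnac6 the colon profile arrays are given as a range. Of each pathway list the 3 genes with the smallest p are named. Members and lists were chosen with earlier results of these data known.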

Additional observations from a re-analysis of the deposited data

Results flagged for a closer look

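For 8 members the genotypes differed in one direction on every colon profile array and in the other direction between the 2 small intestine profile arrays. The same held for 17.6% of all genes compared. The difference between profiles was not tested, since the second one holds 1 array per genotype. Core and initiating enzymes made up most of them, and these steps held 5 and 10 of the 32 members compared. B3gnt6 differed by -3.04 among colon profile arrays and 0.97 between the others, and Gcnt3 by -1.26 and 1.08. Galnt4 gave -0.55 and 0.45, Galnt6 -0.92 and 0.25, Galnt7 -0.69 and 0.11, and Galnt12 -0.68 and 0.03. St6galnac4 gave -2.11 and 0.997. B3gnt3 was the only one higher among colon profile arrays, at 0.48 and -0.04. In Galnt12 and B3gnt3 the second value is close to 0. For B3gnt6 both small intestine profile arrays were under log2 4, near the floor.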

How the results depend on the processing

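No gene and no member passed an adjusted p under 0.05 in any of 18 alternative settings. The 3 members with an unadjusted p under 0.05 became 8 with the bowel profile as a block and 9 without both small intestine profile arrays. Those without overlap went from 4 to 20 without both arrays. With 1 array left out they ran from 5 to 15 and those with p under 0.05 from 2 to 7. The largest counts came without control replicate 1, at 15 and 7, followed by deficient replicate 3, at 10 and 6. Same-numbered samples correlated at -0.575, 0.386 and -0.630 in their deviations. Numbers 1 and 3 each paired a small intestine profile array with a colon profile array. These correlations therefore cannot show whether same-numbered samples share more than a number. With the replicate block 3 members had an unadjusted limma p under 0.05: Galnt11 (0.0076), B3gnt5 (0.0161) and St6galnac4 (0.0133), but not Fut8 (0.0818). The median member difference ran from -0.31 to 0.11. Of 573 member values under the alternatives 545 kept their direction and 28 reversed, in 14 of 32 members, all with differences under 1 in the main comparison except St6galnac6.

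C1galt1c1 turned to -0.029 with quantile normalization. With the mean of probe sets Galnt1 turned to 0.035 and St3gal6 to -0.073, and without suffixed probe sets St3gal6 was -0.25. Without both small intestine profile arrays Galnt1 was 0.0057, Galnt3 -0.045, C1galt1 -0.27 and C1galt1c1 -0.21. Leaving out 1 array reversed Galnt1 (-0.37 to 0.23), Galnt3 (-0.087 to 0.35), Galnt4 (-0.57 to 0.015), Galnt12 (-1.18 to 0.060), C1galt1 (-0.36 to 0.465) and C1galt1c1 (-0.26 to 0.25). It also reversed Gcnt3 (-1.38 to 0.033), St3gal1 (-0.11 to 0.98), St3gal2 (-0.067 to 0.745), St3gal3 (-0.13 to 1.78), St3gal4 (-1.51 to 1.31), St3gal6 (-0.67 to 0.87), St6galnac6 (-0.13 to 1.77) and Fut4 (-0.43 to 0.052). Beyond what each setting leaves out, the cause was not tested.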
